A study of Mus musculus with 2 samples.

Results

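The nuclear genes for the subunits of the mitochondrial respiratory chain and ATP synthase were described across the cell types of the chimeric mouse lung. Members were all genes whose symbol begins with Nduf followed by a, b, c, s or v and a digit, with Uqcr, with Cox and a digit from 4 to 8, or with Atp5, together with Sdha, Sdhb, Sdhc and Sdhd. This gave 85 of the 32285 genes in the count tables, of which 36 were assigned to complex I, 4 to complex II, 8 to complex III, 20 to complex IV and 17 to complex V, the ATP synthase. Ndufa4 and Ndufa4l2 were counted with complex IV, where the NDUFA4 protein is now placed. For 12 members, Cox4i1 (with Gm20388) among them, another gene overlaps on the same strand, so some of their reads may have been left uncounted or shared. Of the 85 members, 84 had at least 1 UMI (unique molecular identifier, a counted transcript) in either library. The testis-type subunit gene Cox8c had 0 UMIs, which allows up to 0.0790 CPM (UMIs scaled to a total of 1000000) in the donor library and 0.114 CPM in the recipient library.

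The study transplanted a single-cell suspension carrying the red fluorescent reporter tdTomato into C57Bl mice and took the lungs 6 months later. Cells from the lungs of 3 chimeric mice were pooled, and live CD45- cells were sorted into reporter-positive cells, the donor library, and reporter-negative cells, the recipient library. Both libraries therefore come from the same transplanted animals, and no untreated lung is among the groups; the strain and age of the donors are not given in the sources used here. Each group was 1 library with no replicate, so no test between groups was possible, and every interval below is an exact 95% interval for counting error only.

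After filtering, 4578 donor and 3199 recipient cells remained, with a median of 6089 and 6385 UMIs. Cells were assigned to a type from the UMIs of marker genes, none of which is a member, and 4301 donor cells (93.9%) and 2825 recipient cells (88.3%) received a type. The libraries shared 816 cell barcodes, and in 736 of these the donor copy was the smaller. The smaller copy was left out. Of the cells kept, 135 of 173 recipient alveolar type 1 cells and 19 of 20 recipient alveolar type 2 cells carried a shared barcode, against 229 of 747 alveolar fibroblasts, 77 of 113 adventitial fibroblasts, 40 of 513 recipient pericytes and 0 of 40 donor pericytes. Types with at least 20 cells gave 15 groups, 10 in the recipient library and 5 in the donor library. The 5 donor groups were general capillary cells (2668), aerocytes (1483), venous cells (51), pericytes (40) and alveolar type 1 cells (33).

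The respiratory chain passes electrons from complexes I and II through complex III to complex IV, cytochrome c oxidase, which reduces oxygen, and complex V uses the resulting proton gradient to make ATP. A small part of the subunits is encoded by mitochondrial DNA and the rest by nuclear genes. Several subunits of complex IV exist as pairs of nuclear genes, a ubiquitous form and a form restricted to certain tissues: Cox4i2 is the lung-enriched and hypoxia-responsive form of the COX4 subunit whose common form is Cox4i1, and Ndufa4l2 is a hypoxia-inducible paralogue of Ndufa4.

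The 2 isoform pairs on which the largest differences turned can be told apart by sequence. The coding sequences below, from the GENCODE M21 transcripts, are shown around the longest stretch that each pair shares, with the shared stretch in capitals. Positions count from the first base of the coding sequence, and Cox4i2 (chromosome 2, 152754173 to 152765037, plus strand, GRCm38) spans bases 284 to 337, Cox4i1 (chromosome 8, 120668222 to 120674207, plus strand) bases 275 to 328, Ndufa4l2 (chromosome 10, 127514967 to 127517154, plus strand) bases 126 to 193, and Ndufa4 (chromosome 6, 11900292 to 11907497, minus strand) bases 111 to 178.
Cox4i2: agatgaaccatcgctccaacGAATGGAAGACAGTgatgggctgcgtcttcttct
Cox4i1: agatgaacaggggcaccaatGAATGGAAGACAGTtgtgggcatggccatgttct
Ndufa4l2: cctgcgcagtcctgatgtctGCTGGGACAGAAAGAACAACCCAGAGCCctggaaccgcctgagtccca
Ndufa4: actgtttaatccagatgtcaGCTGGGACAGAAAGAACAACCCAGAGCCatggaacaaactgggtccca
The longest shared stretch was 14 bases for the COX4 pair and 28 bases for the NDUFA4 pair within the coding sequence. Over whole transcripts it was 14 and 33 bases.

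Pericytes, the mural cells of lung capillaries, held far more of the tissue-restricted form than of the common form of both pairs. In recipient pericytes Cox4i2 stood at 4718 CPM and Cox4i1 at 521 CPM, and in donor pericytes at 4855 and 514 CPM. Of the UMIs of the COX4 pair, Cox4i2 therefore took 90.1% (89.5 to 90.5) in the recipient library and 90.4% (88.6 to 92.1) in the donor library. In the other 13 groups Cox4i2 lay between 0 and 75.8 CPM and took 0 to 13.7% of the pair. Cox4i1 in pericytes lay inside its range over the other groups, 398 to 758 CPM. The pericyte and other groups did not overlap in Cox4i2 in either library.

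In the NDUFA4 pair the restricted form was likewise high in pericytes, and the common form was low. Ndufa4l2 stood at 1778 CPM in recipient pericytes and 1777 CPM in donor pericytes, against 1.79 to 52.1 CPM elsewhere. Ndufa4 stood at 15.2 CPM in recipient pericytes, from 41 UMIs, and at 27.8 CPM in donor pericytes, from 6 UMIs. In the other 13 groups Ndufa4 ran from 302 to 745 CPM, so both pericyte groups lay below all of them. Ndufa4l2 took 99.2% (98.9 to 99.4) of the pair's UMIs in recipient pericytes and 98.5% (96.7 to 99.4) in donor pericytes. UMIs are not scaled for transcript length, and genes may differ in how well they are captured, so these are shares of UMIs and not of protein.

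**Figure D1:**
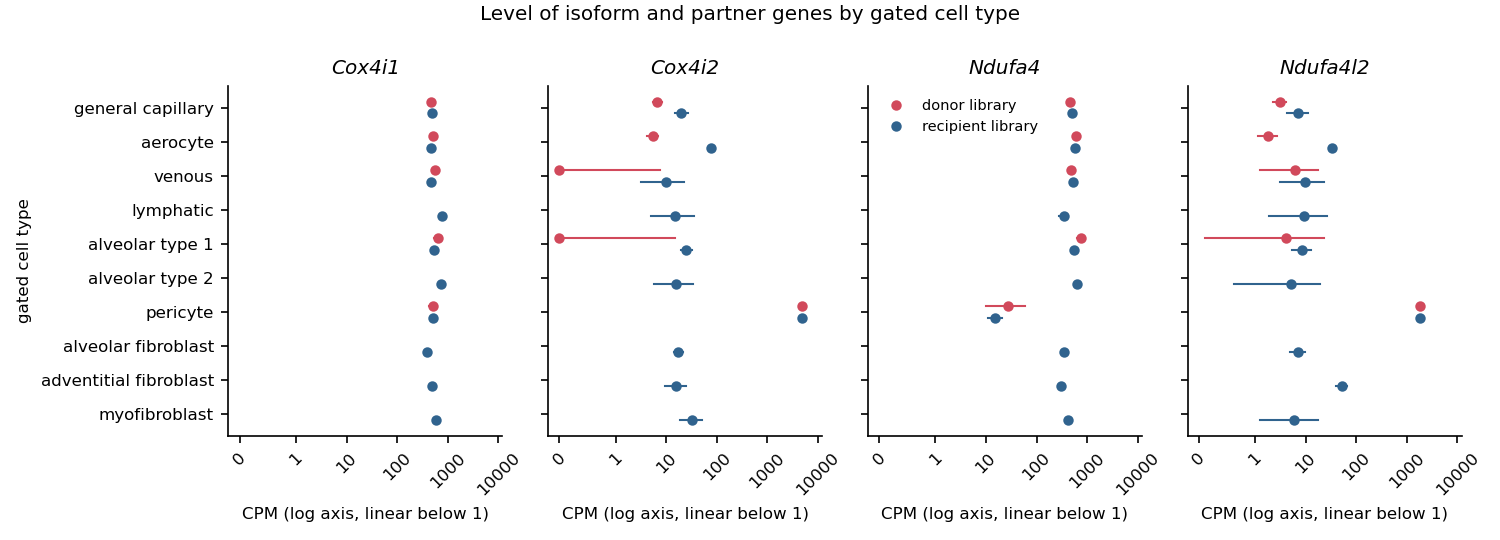
Level of Cox4i1, Cox4i2, Ndufa4 and Ndufa4l2 in CPM (log axis, linear below 1) in each gated cell type, donor library in red and recipient library in blue. Points are the summed UMIs of a group scaled to its total and lines are exact 95% intervals for counting error. Cox4i2 and Ndufa4l2 are highest and Ndufa4 lowest in pericytes of both libraries, while Cox4i1 stays between 398 and 758 CPM.

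The pattern was found in nearly every pericyte. Cox4i2 UMIs outnumbered Cox4i1 UMIs in 506 of 513 recipient pericytes (98.6%, 97.2 to 99.4) and in 40 of 40 donor pericytes (interval 91.2 to 100). A Ndufa4 UMI was seen in 28 of 513 recipient pericytes (5.46%, 3.66 to 7.79) and in 4 of 40 donor pericytes (10.0%, 2.79 to 23.7). By comparison, 595 of 747 alveolar fibroblasts, mesenchymal cells of the same library with a median of 6701 UMIs against 5025 in pericytes, had a Ndufa4 UMI (79.7%). After thinning each cell to 3000 UMIs, which left out 51 pericytes and 46 alveolar fibroblasts, the shares were 4.55% and 61.9%. Across cells, log2 levels of Cox4i2 and Ndufa4l2 correlated with Pearson r of 0.54 over the 513 recipient pericytes and 0.52 over the 40 donor pericytes, a description of cells that share 1 library and differ in depth.

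In aerocytes, low Cox4i2 levels stood beside pericyte markers, and both were higher in the recipient library. Recipient aerocytes, the large capillary cells of gas exchange, had Cox4i2 at 75.8 CPM and the 6 pericyte markers Pdgfrb, Notch3, Gucy1a1, Trpc6, Postn and Cspg4 at 231 CPM in sum. Donor aerocytes had 5.36 CPM and 8.41 CPM. Cox4i2 was found in 68 of 616 recipient aerocytes, and 28 of the 616 carried at least 2 of the pericyte markers. In the 468 recipient aerocytes without any pericyte marker UMI, Cox4i2 stood at 11.2 CPM, and in the 1413 such donor aerocytes at 3.45 CPM. The ratio of Cox4i2 to Ndufa4l2 UMIs was 2.24 (1.85 to 2.71) in recipient aerocytes, 2.78 (1.59 to 5.06) in recipient general capillary cells and 2.50 (1.68 to 3.79) in alveolar fibroblasts, against 2.65 (2.57 to 2.74) in recipient pericytes. Across types the marker sum and Cox4i2 did not keep one order. The markers summed to 205 CPM in alveolar fibroblasts, 243 CPM in adventitial fibroblasts and 250.05 CPM in myofibroblasts, where Cox4i2 was at 17.4, 15.95 and 32.0 CPM. Most of each sum came from Gucy1a1 (149 CPM, alveolar), Pdgfrb (151 CPM, adventitial) or both (106 and 116 CPM, myofibroblasts). Pdgfrb is also a mesenchymal lineage marker, so in fibroblasts the sum does not measure pericyte RNA alone. Notch3 stood at 16.7 CPM in recipient aerocytes and at 5.41 and 6.72 CPM in alveolar and adventitial fibroblasts, with 1 UMI in myofibroblasts. The part of free RNA or of attached pericytes in these low Cox4i2 levels was not tested.

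Adventitial fibroblasts, the mesenchymal cells around larger vessels and airways, departed from that ratio. Their Ndufa4l2 stood at 52.1 CPM, from 62 UMIs in 31 of 113 cells, and their Cox4i2 at 15.95 CPM, which gave a ratio of 0.306 (0.173 to 0.519). This interval did not meet that of pericytes. In the 32 of these cells without a pericyte marker UMI, Ndufa4l2 was at 43.8 CPM and Cox4i2 at 18.3 CPM. Ndufa4l2 took 14.7% (11.5 to 18.4) of its pair there, and Ndufa4 itself was at 302 CPM.

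The genes most like Cox4i2 across the 15 groups, by Pearson correlation of log2(CPM + 1), were Spp1 (0.97), Clstn2 (0.96), Vtn (0.95), Cstdc2 (0.95) and Gucy1b1 (0.95). Those most like Ndufa4l2 were Aff2 (0.98), Fst (0.97), Kcnq5 (0.97), Adcy8 (0.97) and Col8a1 (0.96). Cox4i2 and Ndufa4l2 correlated at 0.90 with each other, and Cox4i2 and Ndufa4 at -0.89. The groups of a library share that library, and all of these values rest largely on the pericyte groups standing apart from the other 13.

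Other restricted forms of complex IV subunits marked other cell types. Cox6b2, the testis-type partner of Cox6b1, stood at 107 CPM in alveolar fibroblasts (555 UMIs in 295 of 747 cells), 114 CPM in adventitial fibroblasts (136 UMIs in 53 of 113 cells) and 130 CPM in alveolar type 2 cells (50 UMIs in 16 of 20 cells). It took 32.0% (29.8 to 34.2), 31.0% (26.7 to 35.5) and 23.9% (18.3 to 30.3) of the pair's UMIs there. The alveolar type 2 level is less certain, since 19 of these 20 cells carried a shared barcode. The 6 donor alveolar type 2 cells, too few for a level, had Cox6b2 at 18.7 CPM from 3 UMIs. In recipient myofibroblasts, a further mesenchymal type, Cox6b2 had 1 UMI, and in recipient pericytes at 11.9 CPM. In every endothelial group it was at 26.3 CPM or below. Donor venous cells, at 26.3 CPM, owed 12 of their 13 UMIs to 3 cells.

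Cox8b, the muscle-type partner of Cox8a, was seen mainly in alveolar fibroblasts and lymphatic cells. It stood at 40.8 CPM in alveolar fibroblasts (211 UMIs in 151 of 747 cells) and at 30.4 CPM in lymphatic cells (10 UMIs in 9 of 57 cells), with shares of the pair of 7.40% (6.46 to 8.42) and 5.26% (2.55 to 9.47). Adventitial fibroblasts had 5.04 CPM from 6 UMIs. Cox8b had 0 UMIs in the recipient general capillary cells, aerocytes, venous cells, alveolar type 2 cells, pericytes and myofibroblasts and in all 5 donor groups, and 2 UMIs in recipient alveolar type 1 cells. For the 7588 UMIs of the pair in donor general capillary cells, a count of 0 has an exact upper limit of 0.0486%. Cox7b2, a testis-type form of Cox7b, had 21 UMIs in 21 alveolar fibroblasts and 2 in adventitial fibroblasts, and 0 in the other groups.

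Alveolar type 1 cells, the flat epithelium of gas exchange, had the highest level of Cox7a1, the heart and muscle form of Cox7a2. It stood at 33.8 CPM in the recipient library (87 UMIs in 54 of 173 cells) and at 65.9 CPM in the donor library (16 UMIs in 9 of 33 cells, 62.5% of them in 3 cells). Its shares of the pair were 8.48% (6.85 to 10.4) and 12.03% (7.04 to 18.8), with overlapping intervals, and every other group lay between 0 and 7.82 CPM. Donor alveolar type 1 cells had a median of 3174 UMIs against 15556 in the recipient library. Cox6a2, the heart and muscle form of Cox6a1, was at 193 CPM in recipient alveolar type 2 cells, but 3 of the 20 cells held 73.0% of its 74 UMIs. It was at 8.17 CPM in recipient and 8.23 CPM in donor alveolar type 1 cells, and at 0 to 0.223 CPM in every other group.

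**Figure D2:**
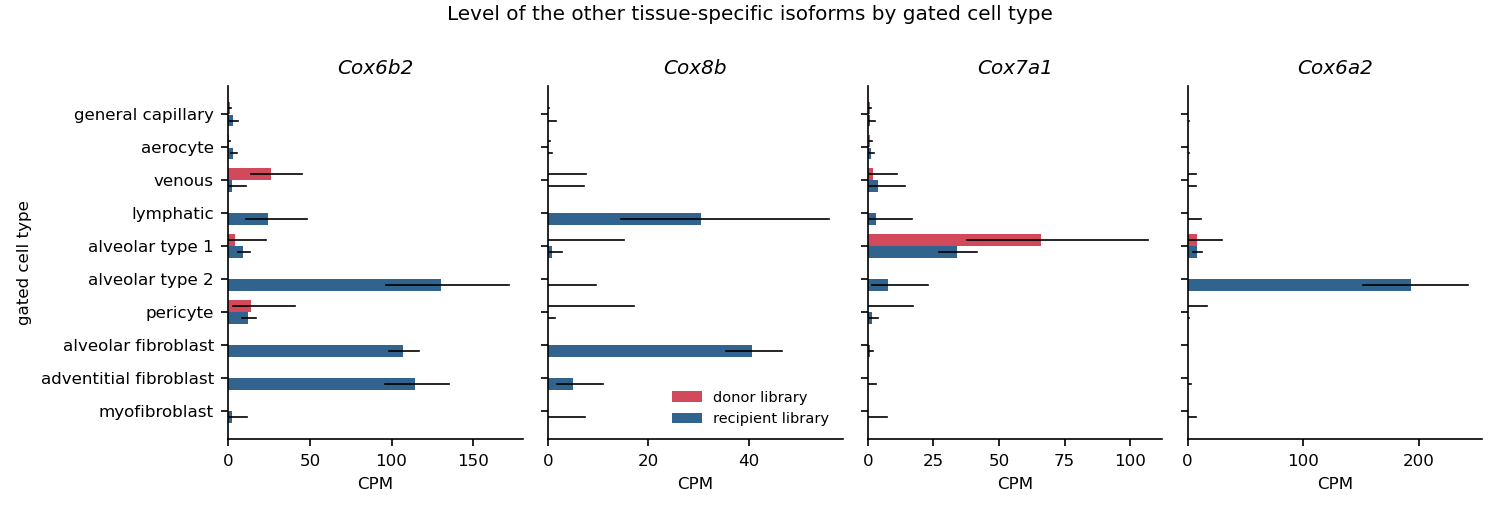
Level of Cox6b2, Cox8b, Cox7a1 and Cox6a2 in CPM in each gated cell type, donor library in red and recipient library in blue. Bars are summed UMIs scaled to the group total and lines are exact 95% intervals for counting error. Cox6b2 is highest in fibroblasts and alveolar type 2 cells, Cox8b in alveolar fibroblasts and lymphatic cells, Cox7a1 in alveolar type 1 cells and Cox6a2 in alveolar type 2 cells.

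The 3 genes for the c-ring subunit of ATP synthase, Atp5g1, Atp5g2 and Atp5g3, shared their UMIs more evenly. Atp5g2 took 46.4% (45.4 to 47.5) in donor and 48.4% (45.8 to 51.0) in recipient general capillary cells, and 38.3% (37.3 to 39.3) and 37.6% (35.8 to 39.5) in aerocytes. In each of these types the intervals of the libraries overlapped, whereas those of the types did not. Atp5g1 took 38.9% (36.9 to 40.9) in alveolar fibroblasts and 27.8% (25.6 to 30.2) in recipient general capillary cells. Atp5g3 took 33.0% (30.5 to 35.6) in recipient pericytes and 32.8% (30.6 to 35.1) in recipient alveolar type 1 cells, against 23.8% (21.6 to 26.0) in recipient general capillary cells.

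Summed over all members, nuclear respiratory chain transcripts made up 1.39 to 2.29% of the UMIs of a group. In the recipient library pericytes (2.23%) and alveolar type 2 cells (2.19%) were highest, with overlapping intervals. Lymphatic cells (1.999%), alveolar type 1 cells (1.86%), myofibroblasts (1.75%), aerocytes (1.73%), venous cells (1.66%), general capillary cells (1.60%), adventitial fibroblasts (1.49%) and alveolar fibroblasts (1.39%) followed. Among these neighbours only myofibroblasts and aerocytes overlapped. Under other processing choices recipient alveolar type 1 cells ranged from 1.86 to 2.25% and lymphatic cells from 1.85 to 2.29%, so their place in this order is not firm. In the donor library the order was pericytes (2.29%), alveolar type 1 cells (2.25%), aerocytes (1.90%), venous cells (1.82%) and general capillary cells (1.58%), and only the first pair overlapped. A share is relative, so more transcripts of these genes and fewer of all others cannot be told apart.

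The high sum in pericytes rested on Cox4i2 and Ndufa4l2. Complex IV subunits made up 1.01% of the UMIs of recipient pericytes and 1.04% of those of donor pericytes, against 0.365 to 0.653% elsewhere. Without Cox4i2 and Ndufa4l2, complex IV fell to 0.365% and 0.373% in the pericytes, next to 0.362% in alveolar fibroblasts and 0.651% in alveolar type 2 cells. The sum over all members without these genes was 1.58% in recipient pericytes, within the range of the other recipient types (1.39 to 2.19%). Complex I made up 0.589% and complex V 0.427% of recipient pericyte UMIs.

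**Figure D3:**
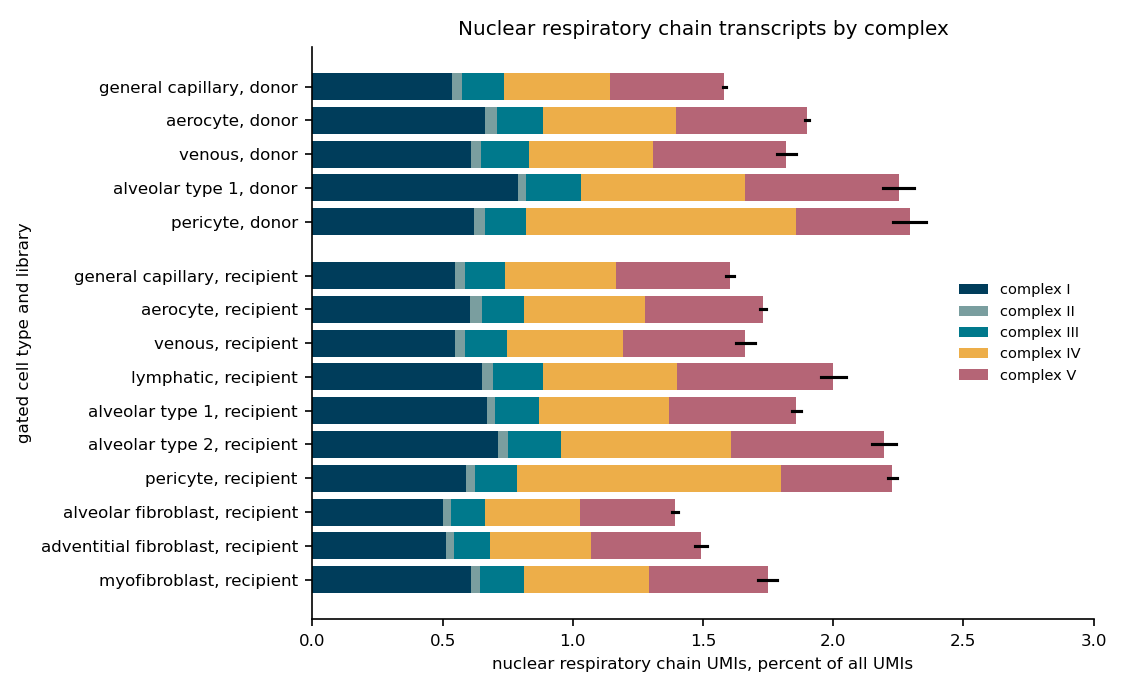
Share of all UMIs that came from nuclear respiratory chain genes, in percent, for each gated cell type and library, stacked by complex. Black lines are exact 95% intervals of the sum for counting error. Pericytes of both libraries have a complex IV part of 1.01 to 1.04%, and the other groups 0.365 to 0.653%.

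The 13 subunit genes of the mitochondrial genome did not follow the order of the nuclear members. They made up 2.75% (alveolar type 1 cells) to 3.85% (alveolar type 2 cells) of recipient UMIs. Nuclear members amounted to 67.6% of mitochondrially encoded UMIs in recipient alveolar type 1 cells and 65.2% in donor aerocytes. In venous cells they amounted to 43.3% in the recipient and 47.0% in the donor library. The cell filter set an upper limit on the mitochondrial share of each cell, 6.68% in the donor and 7.35% in the recipient library, so these ratios depend on it.

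Apart from the isoforms, most members were expressed at similar levels across the recipient types. Of 81 members with a mean of at least 20 CPM over the 10 types, 76 had a highest level under 2 times their median, and 4 reached 3 times: Cox4i2, Ndufa4l2, Cox6b2 and Cox6a2. Of all 7210 genes with this mean, 52.4% were under 2 times and 31.1% reached 3 times. The median multiple was 1.43 over the 81 members and 1.93 over all these genes. Here and below, the genes set beside the members were not matched to them in level, and low counts widen such spreads through counting error. The remaining member between these limits was Ndufc2, a complex I membrane-arm subunit, at 469 CPM in recipient alveolar type 1 cells against a median of 210 CPM, or 2.23 times. It was at 416 CPM in donor alveolar type 1 cells and between 133 and 301 CPM in every other group. Of the 81 members, 33 had their highest recipient level in alveolar type 2 cells, where 12.6% of all these genes had theirs, and 22 in lymphatic cells, against 13.98% of all these genes.

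Each type was then set against the median of the other 9 recipient types, with 80 members meeting the level limits. In alveolar type 2 cells 20 of 80 members were at least 1.5 times higher, against 20.6% of all genes, and in lymphatic cells 15 of 80 against 26.4%. These shares are near or below those of all genes, while the median member was 0.35 log2 units higher in alveolar type 2 cells where the median gene was at -0.17, and 0.29 higher in lymphatic cells where the median gene was at 0.14. No member was lower in lymphatic cells (19.5% of all genes) and only Ndufa4l2 was in alveolar type 2 cells (33.8% of all genes). Of the 20 alveolar type 2 cells, 19 carried shared barcodes, so without those barcodes only 1 cell remained, in which the summed share was 1.69% (1.33 to 2.11) in place of 2.19%.

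In alveolar fibroblasts the median member was lower than the median gene, and Ndufs4 and Uqcrq were lowest in the 3 fibroblast types. In alveolar fibroblasts 11 of 80 members were at least 1.5 times lower (18.9% of all genes), with a median of -0.31 against -0.06 over all genes, and only Cox6b2 was higher (18.2% of all genes). In adventitial fibroblasts 10 of 80 were lower (23.1% of all genes), with a median of -0.21 against -0.16, and Cox6b2 and Ndufa4l2 were higher (17.5% of all genes). In myofibroblasts 6 of 80 were lower (24.9% of all genes), with a median of -0.03 against -0.09, and Cox4i2 and Cox6c were higher (18.4% of all genes). The share of members on the lower side was below that of all genes in each of these types. Cox5a, Uqcrq and Ndufs4 were on the lower side in all 3 types, and the share of all genes that were so was not counted. Ndufs4, a complex I subunit of the electron-input arm, stood at 85.3 CPM in alveolar fibroblasts, 84.8 CPM in adventitial fibroblasts and 84.0 CPM in myofibroblasts, and between 107 and 173 CPM in the other 12 groups. Uqcrq, a small subunit of complex III, stood at 150.4, 149 and 150.03 CPM there and between 194 and 344 CPM elsewhere. The fibroblasts thus lay below every other group in both genes.

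Alveolar type 1 cells had 6 of 80 members at least 1.5 times higher (21.7% of all genes), among them Ndufc2, Cox6c and Atp5d, and 2 lower (28.1% of all genes), Sdha and Cox7a2l. Cox6c, a complex IV subunit, stood at 844 CPM in recipient and 996 CPM in donor alveolar type 1 cells, and Atp5d, the delta subunit of ATP synthase, at 342 and 391 CPM. Each was highest among the 5 donor types in these cells, but the donor library had no alveolar type 2 group. In the recipient library both genes were also at least 1.5 times higher in alveolar type 2 cells, and Cox6c in myofibroblasts. Sdha stood at 70.4 CPM in the recipient and 78.2 CPM in the donor library, and both values lay below those of all other groups. In sum, complex II took 0.0313 and 0.0329% of UMIs in alveolar type 1 cells, against 0.0444 and 0.0461% in recipient and donor aerocytes, the highest groups. A low complex II sum was not particular to alveolar type 1 cells. Recipient adventitial fibroblasts (0.0290%) and alveolar fibroblasts (0.0309%) were lower.

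In pericytes 4 of 80 members were at least 1.5 times higher (21.9% of all genes) and 4 lower (18.3% of all genes). Besides Cox4i2 and Ndufa4l2, the higher members were Uqcrc1, a core subunit of complex III, at 178 CPM in the recipient and 139 CPM in the donor library, and Atp5a1, the alpha subunit of ATP synthase, at 411 and 430 CPM. Besides Ndufa4, the lower ones were Ndufc2 (142 and 148 CPM), Cox5a (111 and 120 CPM) and Atp5h (281 and 282 CPM). Cox5a encodes a nuclear subunit of complex IV and Atp5h a stalk subunit of ATP synthase. These calls at 1.5-fold were not particular to pericytes. Ndufa4, however, was far lower there (15.2 CPM in recipient and 27.8 CPM in donor pericytes) than in adventitial fibroblasts (302 CPM). Uqcrc1 and Atp5a1 were also higher in lymphatic cells, and Atp5a1 in alveolar type 2 cells. Ndufa4 and Ndufc2 were also lower in adventitial fibroblasts, Atp5h in alveolar fibroblasts, and Cox5a in alveolar fibroblasts, adventitial fibroblasts and myofibroblasts.

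Single members also stood out in endothelial types. Aerocytes had 4 of 80 members at least 1.5 times higher (23.3% of all genes): Cox4i2 and Ndufa4l2, described above with the pericyte markers, and Sdhb and Ndufa9. Sdhb, the iron-sulphur subunit of complex II, was at 174 CPM in recipient and 184 CPM in donor aerocytes, and at 80.5 to 139 CPM in the other groups. Ndufa9, an accessory subunit of complex I, was at 113 and 116 CPM, against 40.3 to 94.7 CPM elsewhere. Venous cells had 1 of 80 (21.6% of all genes), Ndufa8, an accessory subunit of complex I. It was at 230 CPM in the recipient and 314 CPM in the donor library, and at 77.2 to 163 CPM in every other group. For these 3 genes the same type was highest in both libraries. Below the limit were Cox6b2 in aerocytes (19.7% of all genes), and Cox4i2, Cox6b2 and Ndufa11 in venous cells (17.2% of all genes). General capillary cells had none of 80 members higher (23.0% of all genes) and only Cox6b2 lower (14.3% of all genes).

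**Figure D4:**
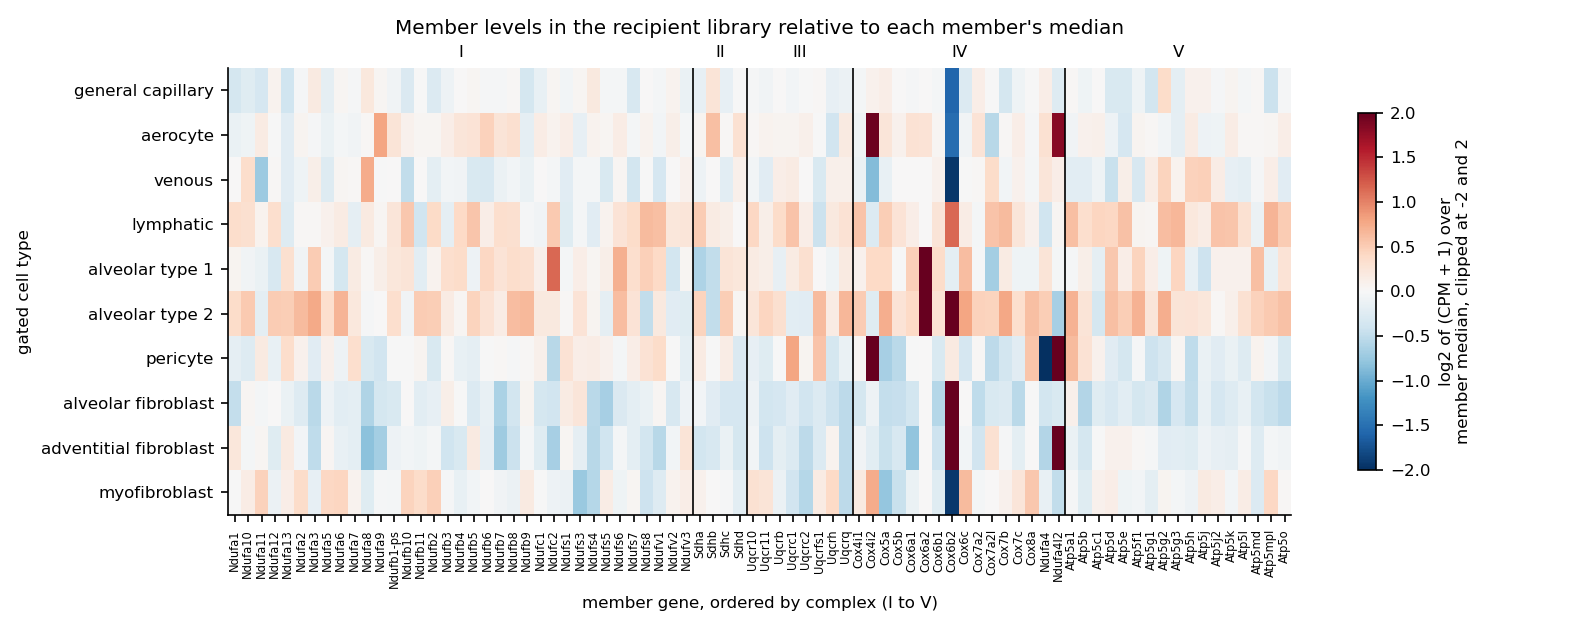
All but 1 of the members with a mean of at least 20 CPM over the 10 recipient types, in columns ordered by complex, and gated cell types in rows. Colour is the log2 ratio of CPM + 1 to the member's median over the types, clipped at -2 and 2. Most columns are pale, and the strongest colours are those of Cox4i2, Ndufa4, Ndufa4l2, Cox6b2 and Cox6a2.

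Donor and recipient cells of the same type could be compared in general capillary cells, aerocytes and venous cells, with at least 50 cells in each library. The comparison asks whether engrafted donor endothelium and host endothelium of the same lungs differed in these transcripts. In general capillary cells the sums were nearly the same, at 1.58% in the donor and 1.60% in the recipient library, a log2 ratio of -0.02 (-0.034 to -0.0038). In aerocytes the donor sum was higher, 1.90 against 1.73%, a log2 ratio of 0.13 (0.12 to 0.15). In venous cells it was 1.82 against 1.66%, a log2 ratio of 0.13 (0.088 to 0.17). The spread between animals or libraries is unknown, so neither ratio can be set against replicate error.

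The aerocyte difference was small and spread over the members. Of 80 members with enough UMIs (at least 20 in both libraries together and 1 in each), 72 had a donor level above the recipient level, as had 45.8% of all genes, and the median member was at 0.14 against -0.02 over all genes. The summed ratio was 0.13 for complex I, 0.14 for complex III, 0.13 for complex IV and 0.15 for complex V, and 0.05 (-0.02 to 0.13) for complex II, whose interval includes equality. The highest members were Ndufs3 at 93.8 CPM in the donor and 78.1 CPM in the recipient library and Ndufs5 at 278 and 232 CPM, complex I subunits, each with a log2 ratio of 0.26. The 13 mitochondrially encoded genes had a summed ratio of 0.03. Other lists moved in the same cells. The summed ratio was 0.21 for cytosolic ribosomal protein genes, 0.27 for early-response genes, known to rise on tissue dissociation, 0.15 for glycolysis genes, 0.09 for mitochondrial ribosomal protein genes, 0.07 for genes of the citric acid cycle, 0.04 for assembly factors and -0.0037 for regulators of mitochondrial biogenesis. Of the fixed marker lists, 3 of 6 general capillary markers and 5 of 6 platelet markers were at least 1.5 times higher in donor aerocytes (3.13% of all genes). Their medians were 0.79 and 1.76 and their summed ratios 0.17 and 0.29. Of the alveolar type 1 markers 4 of 6 were lower (6.55% of all genes), with a median of -1.20 but a summed ratio of -0.02. The median depth was 8806 UMIs in donor and 7596 in recipient aerocytes. Across cells, the member share and log10 UMIs had a Pearson r of 0.50 in recipient and 0.19 in donor aerocytes. In venous cells r was -0.57 in the donor and 0.18 in the recipient library. The part of these lists and of depth in the member ratio was not tested.

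At 1.5-fold, few members differed, and in aerocytes and general capillary cells all that did were restricted isoforms. None of 80 was higher in donor aerocytes (3.13% of all genes) and 3 were lower (6.55% of all genes). These were Ndufa4l2 at 1.79 CPM in the donor and 33.9 CPM in the recipient library, a log2 ratio of -4.24 (-4.93 to -3.62), Cox4i2 at 5.36 and 75.8 CPM, a ratio of -3.82 (-4.21 to -3.45), and Cox6b2 at 0.521 and 2.96 CPM, a ratio of -2.51 (-4.06 to -1.10) from 21 UMIs. All 6 pericyte markers were also lower in donor aerocytes, with a summed ratio of -4.78, as were all 5 measured mesenchymal lineage markers, at -4.11. In general capillary cells none of 79 members was higher (7.62% of all genes) and 2 were lower (9.28% of all genes), Cox4i2 at 6.72 and 19.97 CPM, a ratio of -1.57 (-2.07 to -1.05), and Ndufa4l2 at 3.10 and 7.19 CPM. The pericyte markers there had a summed ratio of -2.57, from 50.3 CPM in the recipient to 8.50 CPM in the donor library. Whether the pericyte-type RNA accounts for these ratios was not tested.

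Smaller differences in general capillary cells went both ways. Of 79 members, 34 had a donor level above the recipient level (43.0%), as had 49.2% of all genes. The intervals of 4 members excluded equality on the higher and of 10 on the lower side, as did those of 9.16 and 11.8% of all genes. Atp5k, a small subunit of ATP synthase, was at 210 CPM in the donor and 254 CPM in the recipient library, a log2 ratio of -0.27 (-0.40 to -0.15). Ndufs8, a core subunit of complex I, was at 80.8 and 96.7 CPM, a ratio of -0.26 (-0.46 to -0.05). On the other side Atp5b, the catalytic beta subunit of ATP synthase, was at 432 and 391 CPM, a ratio of 0.15 (0.05 to 0.24).

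In venous cells 2 of 77 members were at least 1.5 times higher in the donor library (11.6% of all genes) and none was lower (10.0% of all genes). Sdha, the flavoprotein subunit of complex II, was at 158 CPM in the donor and 102 CPM in the recipient library, from 78 and 52 UMIs, a log2 ratio of 0.64 (0.11 to 1.17). Uqcrfs1, the Rieske iron-sulphur protein of complex III, was at 103 and 66.4 CPM, a ratio of 0.64 (-0.02 to 1.31) whose interval includes equality. Next were Atp5o, a stalk subunit of ATP synthase, at 212 and 150.3 CPM (0.50, 0.06 to 0.94) and Ndufa2, a complex I accessory subunit, at 306 and 223 CPM (0.46, 0.10 to 0.82). Sdha was also higher in donor general capillary cells, at 124 against 97.1 CPM, a ratio of 0.36 (0.16 to 0.56), but not in aerocytes, at 108 against 113 CPM, where the interval of the ratio (-0.22 to 0.07) includes equality. Whether the types differ in this ratio was not tested.

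**Figure D5:**
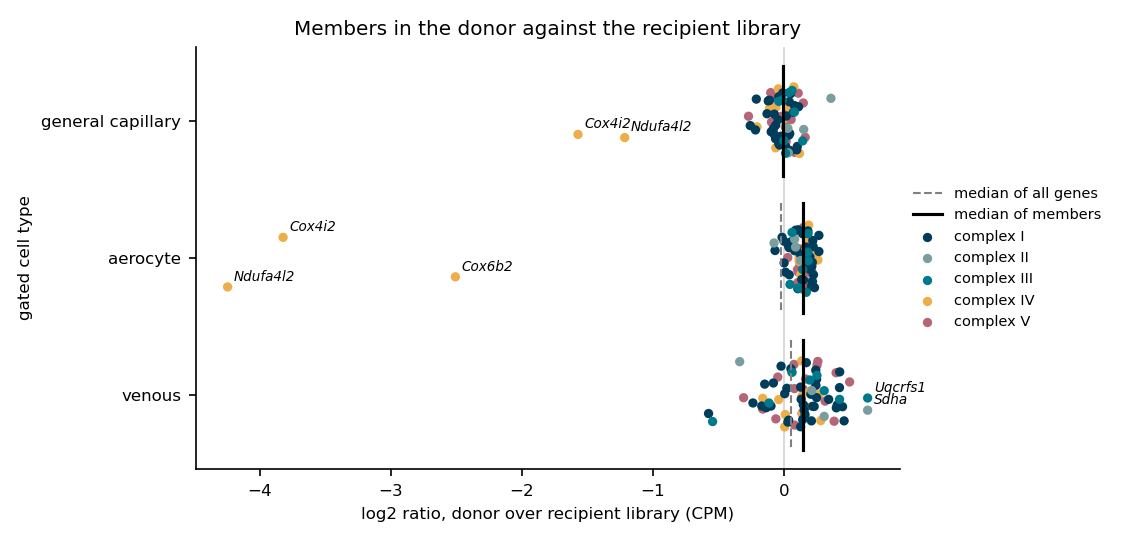
Log2 ratio of donor over recipient CPM for each member with enough UMIs, in the 3 cell types compared, coloured by complex, with vertical scatter added for display. Solid lines mark the median member and dashed lines the median of all genes. Cox4i2 and Ndufa4l2 lie far to the left in general capillary cells and aerocytes, and the median member of aerocytes is at 0.14 while that of all genes is at -0.02.

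The members' promoters shared sequence features that did not enter the choice of members. RefSeq promoters (GRCm38.p6, 250 bases before to 50 after the start) were at hand for 67 of the 85 members. Cox4i2, Cox4i1, Ndufa4l2 and Cox6a2 were not among them, so the shares below do not cover these genes. The NRF1 motif, spelled GCGC, any base, then TGCGC, the site of nuclear respiratory factor 1, a regulator of many respiratory chain genes, was found on either strand in 17 of 67 (25.4%), against 5.19% of all 27025 genes in the table. The ETS-type motif CCGGAAG, to which the factor GABP binds, was found in 17 of 67 (25.4%) against 9.93%, and the hypoxia element core, ACGTG or GCGTG, in 44 of 67 (65.7%) against 46.7%. Promoters of housekeeping genes are rich in G and C, and these shares were not adjusted for base composition. A match is a description of letters and not a site of binding.

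The promoter of the ubiquitous Cox6a1 and those of the restricted forms Cox6b2 and Cox8b are shown for comparison, as the bases before the start that lie in no annotated exon. They lie at chr5:115348982-115349129, chr7:4753095-4753225 and chr7:140900447-140900696, all on the minus strand, and capitals mark matches to any of the motifs above.
Cox6a1: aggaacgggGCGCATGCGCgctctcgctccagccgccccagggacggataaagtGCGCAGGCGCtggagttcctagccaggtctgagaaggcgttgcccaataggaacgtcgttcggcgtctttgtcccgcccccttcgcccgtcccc
Cox6b2: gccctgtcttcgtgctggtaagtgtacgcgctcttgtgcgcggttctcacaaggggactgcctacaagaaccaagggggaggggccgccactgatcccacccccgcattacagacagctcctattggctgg
Cox8b: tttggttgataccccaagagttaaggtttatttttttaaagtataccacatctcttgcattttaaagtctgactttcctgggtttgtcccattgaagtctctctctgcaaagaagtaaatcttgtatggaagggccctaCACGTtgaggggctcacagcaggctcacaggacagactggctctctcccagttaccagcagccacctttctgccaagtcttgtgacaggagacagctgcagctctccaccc
In these bases Cox6a1 held NRF1 matches, Cox8b held a hypoxia element core and Cox6b2 held none of the motifs. The stretches differ in length, at 148, 131 and 250 bases for Cox6a1, Cox6b2 and Cox8b. In the 250 bases before the start, the common forms Ndufa4 and Cox7b held none of the motifs, and the restricted Cox7a1 held a hypoxia element core. The promoters shown therefore do not establish a difference between ubiquitous and restricted forms.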

How the data were processed

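The authors deposited whole-number UMI counts for each gene and cell barcode, 1 filtered matrix per library, unscaled. Cell Ranger aligned to mm10. Its version is 4.0.0 per the file headers and the submitters' processing notes, but 3.0.1 per the labels' protocol. The donor library held 6319 barcodes with 37997269 UMIs and the recipient library 3784 with 26201315. Barcodes over 3 scaled median absolute deviations from their library's median in genes, UMIs or mitochondrial share were left out, then the highest Scrublet scores (scanpy 1.11.5) at 0.8% per 1000 barcodes, since the automatic threshold marked 0.0317% of donor barcodes, and the smaller copy of each shared barcode.

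A cell received a type with at least 5 lineage marker UMIs, 80% of them from 1 lineage, and at least 3 type marker UMIs from 2 genes that were 2 times those of any other type of the lineage. These limits and the markers kept were set after marker levels, not member levels, had been seen. UMIs were summed per library and type and scaled to CPM. With 1 library per group no test was run: shares carry exact binomial and ratios exact conditional 95% intervals. A member counted as apart at 1.5-fold, with 20 UMIs in both libraries together. For type contrasts a gene needed a mean of 20 CPM and a median of 1 CPM over the other types, a limit added after the data were seen. The calls were tested on simulated data. Positions and transcripts came from GENCODE M21 (GRCm38), matched by gene identifier.

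Named are isoform pairs in every type, up to 5 members each way per compared type with at least 100 UMIs, the members of highest multiple over their median, and the 5 genes most like Cox4i2 and Ndufa4l2. Of these, those that add to a result are described. Single members beyond this rule (Uqcrc1, Atp5a1, Ndufc2, Cox5a, Atp5h, Sdhb, Ndufa9, Ndufa11, Uqcrfs1, Ndufs4, Uqcrq, Cox6c, Atp5d) were chosen from the 1.5-fold counts after their values were seen. The members and lists were chosen with earlier results of these data known. Alternatives changed the cell filter, doublets, shared barcodes, gate, total, weighting, count minimum and fold. The values of 1 member are not reported here, though it is in all counts and sums.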

Additional observations from a re-analysis of the deposited data

Results flagged for a closer look

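The summed members were nearly the same in both libraries in general capillary cells, with a log2 ratio of donor over recipient of -0.019. They were higher in the donor library in aerocytes (0.13) and venous cells (0.13). The difference between the types was not tested, since each rests on the same 2 libraries.

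Smooth muscle cells were too few for a level, with 17 recipient and 4 donor cells, but held Cox4i2 at 529 and 195 CPM, above all groups with a level other than pericytes (75.8 CPM or below). This group was chosen after its values were seen. Cox4i2 took 44.4% (35.8 to 53.2) of the COX4 pair's UMIs in the recipient library, 59 against 74 of Cox4i1, and 18.5% (6.30 to 38.1) in the donor library, 5 against 22. Ndufa4l2 took 45.7% (36.4 to 55.2) of its pair in the recipient library, 53 against 63 UMIs of Ndufa4.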

How the results depend on the processing

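None of the 192 values of the main comparisons under other processing choices turned in direction: 154 stayed within their limits and 38 moved. Of the further values followed under these choices, 74 stayed within their limits and 46 moved. The cause was not tested. No paired analysis was possible because each group holds 1 library, and no replicate could be left out. Isoform shares in pericytes stayed within their counting intervals. As reported, the summed share of recipient pericytes over alveolar fibroblasts was 1.60, that of aerocytes over general capillary cells 1.08 in the recipient and 1.20 in the donor library, and nuclear members were 61.5, 52.5 and 49.6% of mitochondrially encoded UMIs in recipient pericytes, recipient general capillary cells and donor general capillary cells. The last 3 became 58.5, 51.0 and 47.8% with fixed filter limits and 56.2, 49.95 and 46.5% with no cell filter. Donor general capillary cells came to 49.9% with doublets kept, recipient pericytes to 60.1% with all shared barcodes left out and 62.7% with a stricter gate, which gave recipient general capillary cells 51.6%. Pericytes over alveolar fibroblasts came to 1.68 without shared barcodes and 1.64 with the stricter gate. Aerocytes over general capillary cells came in the donor library to 1.19 with doublets kept, 1.21 with the stricter gate, 1.19 with totals without mitochondrial, ribosomal protein and haemoglobin genes (recipient 1.06) and 1.19 as a mean over cells (recipient 1.04). As a mean over cells the log2 ratio of summed members was 0.18 in aerocytes and 0.21 in venous cells, and the median member of aerocytes 0.18. Fixed limits gave 0.18 in venous cells.

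The 1.5-fold counts of venous cells, 2 higher and 0 lower as reported, were the least stable: 1 higher and 1 lower with fixed limits or no cell filter, 1 higher with doublets kept or at least 100 UMIs, 8 higher and 2 lower with the stricter gate, 5 higher as a mean over cells, 1 lower without shared barcodes, and 2 lower with 1 UMI in each library. At a smaller fold they were 13 higher and 3 lower, and at 2-fold 0 were higher. General capillary cells had 1 lower member with at least 100 UMIs and 1 higher at the smaller fold. Donor pericytes, donor alveolar type 1 cells, recipient lymphatic cells and recipient alveolar type 2 cells had the fewest UMIs, 216077 to 383428 in all. The summed share ranged from 2.21 to 2.77% in donor alveolar type 1 cells and from 1.69 to 2.56% in recipient alveolar type 2 cells, where the lowest value, from 1 cell, would place them below aerocytes. In recipient alveolar type 1 cells it ranged from 1.86%, the value reported, to 2.25%.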

Other observations

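Genes outside the member list added to the picture of pericytes. Higd1b, a member of the hypoxia-inducible gene domain family, was at 1904 CPM in recipient and 1916 CPM in donor pericytes and at 29.8 CPM or below in every other group. A fixed list of 18 hypoxia-related genes, Higd1b among them, was not highest in pericytes as a whole. It made up 0.350% of recipient pericyte UMIs, against 0.431% in alveolar type 1 cells, 0.372% in general capillary cells and 0.225% or less in the other recipient types. In the donor library it made up 0.374% in pericytes and 0.418% in general capillary cells. Ucp2, an inner-membrane carrier, was at 17.4 and 23.1 CPM in recipient and donor pericytes and 10.8 CPM in alveolar fibroblasts, against 345 and 365 CPM in recipient and donor aerocytes and 264 and 234 CPM in general capillary cells. Sod1, the cytosolic superoxide dismutase, was at 79.0 and 41.7 CPM in pericytes and 57.1 to 88.0 CPM in the recipient fibroblast types, against 111 to 229.5 CPM in the endothelial and epithelial groups. Cytochrome c (Cycs), the carrier between complexes III and IV, varied less, from 84.0 CPM in adventitial fibroblasts to 203 CPM in alveolar type 2 cells.

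Gpx4, which reduces lipid peroxides, was highest in alveolar type 1 cells, at 1639 CPM in the recipient and 2259 CPM in the donor library, against 387 to 882 CPM elsewhere. Ppargc1a, a coactivator of mitochondrial gene programmes, stayed at 8.39 CPM or below in all 15 groups.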
